A study of Mus musculus with 5 samples.

Results

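On the Agilent mouse expression array used in this series, 4276 of 56605 non-control probes were named only by a stretch of an autosome, with a chromosome, a start, an end and a strand letter in place of a transcript accession. These probes were taken by that name alone and no measured value entered the choice. A further 174 interval probes on chromosome X were left out, and no probe of the 4276 carried a lincRNA prefix. Intervals are given on the mouse build mm9, as the file headers name it, with F for the forward and R for the reverse strand. No mm9 gene annotation was used here, so whether an interval lies between genes, in an intron or beside a known noncoding transcript was not analysed, and the intervals are called by probe and position only. Probe sequences were not analysed here.

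Transcription in mammalian genomes extends well beyond protein-coding genes. Long intergenic noncoding RNAs are spliced or unspliced transcripts longer than small RNAs, mostly of low abundance and often restricted to a tissue or cell state, and expression arrays can carry probes for candidate intervals on either strand. A few such RNAs act in well-studied pathways, among them lincRNA-p21 downstream of p53 and Pvt1 beside Myc.

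RNA came from mouse gastric (Ga) organoids, epithelial spheres grown from stomach, on 5 one-colour arrays with 1 array a sample. The control array held Trp53flox/flox organoids with the pLKO.1 vector and an shLuc hairpin against luciferase, sampled before inoculation under the skin. The 4 tumour arrays held organoids recovered from subcutaneous tumours, all with Trp53 loss: 1 with shCdh1 #1, 1 with shCdh1 #2, 1 with Apc580D and 1 with Pik3caH1047R. All 5 samples were labelled female. The labels do not give ages, the number of animals behind a sample, or whether the tumour lines descend from the control line; Trp53 loss, a tumour origin and time in a host therefore cannot be told apart in any comparison with the control. The design text counts more tumour lines than these, and the rest were not analysed here. Below, the samples are called control, hairpin 1, hairpin 2, Apc and Pik3ca.

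Trp53, which encodes p53, had a level of 0.85 in the control and of −5.86 to −4.86 on the tumour arrays, and Cdh1, encoding E-cadherin, was at 0.07 and 0.26 with the hairpins against 4.39 to 4.58 on the other 3 arrays. The probes for Apc and Pik3ca do not check those labels: Apc stood at −3.24 on its own array and at −3.36 to −2.89 elsewhere, and Pik3ca at 2.23 on its own array and at 1.45 to 3.40 elsewhere. Levels here are log2 processed signals relative to each array's 75th percentile, which was 24.0 to 27.9 times the local background. Between 14 and 15 of 15 gastric epithelial markers were well above background on every array. Of the 8 fibroblast markers, 2 were in the control, 1 and 3 with the hairpins, 5 in Apc and 2 in Pik3ca. Endothelial markers numbered 2 to 3 of 5 by array, leukocyte markers 3 to 5 of 6, adipocyte markers 2 to 3 of 4 and keratinocyte markers 3 of 3. Emcn, an endothelial sialomucin, was at −2.54 in the control and not well above background on any tumour array (−5.54 ± 0.242, limma adjusted p = 0.0104), and Fabp4, an adipocyte fatty acid carrier, at −1.42 in the control and −4.50 to −2.54 on the tumour arrays (limma adjusted p = 0.296). The other endothelial markers did not follow Emcn. Kdr was undetected in the control and well above background with hairpin 2, in Apc and in Pik3ca, at −4.18, −4.87 and −5.18. Cdh5 and Tek were detected with hairpin 1 alone, and Pecam1 differed by −0.002. The median difference of the endothelial list was 0.78. The log2 of the summed level, which the brightest marker weighs on most, was −2.10 in the control and −3.53 to −2.70 on the tumour arrays for the endothelial list. For the adipocyte list it was −0.46 against −1.82 to −1.27. The part of these cell types in the lower interval probes was not tested. The Pik3ca array went against its label of female: 4 Y-linked genes were well above background there and on no other array, and Xist was not, so the leading counts are also given without it. The control and both hairpins shared slide and scan 1, and Apc and Pik3ca shared slide and scan 2.

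The 4276 probes covered 3094 distinct intervals on 19 autosomes, most on chromosome 1 (343 probes) and fewest on chromosome 19 (95 probes). The intervals behind the probes ran from 62 to 538251 bases with a median of 7327.5 bases. 1178 intervals were probed on the forward strand alone, 1103 on the reverse strand alone and 812 on both, and 1 had no strand letter. 178 intervals had more than 2 probes and the most densely covered had 8. Probes of an interval share a target region and are not independent of each other.

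Most interval probes were detected in these organoids, but less often than probes for coding transcripts. By the scanner flag for a signal well above background, 2273 probes (53.2%) were detected in the control, 2370 (55.4%) with hairpin 1, 2356 (55.1%) with hairpin 2, 2441 (57.1%) in Apc and 2309 (54.0%) in Pik3ca. Apc had the highest share, as it had over all spots (65.3% against 61.8% to 62.6%), and the control the lowest, and the whole range was under 4 percentage points. On all 5 arrays 1949 probes (45.6%) were detected, on at least 1 array 2814 (65.8%), and on none 1462 (34.2%). Across the 52155 probes named in other ways the share per array was 60.8% to 64.3%, for RefSeq NM (coding) probes 71.2% to 74.6%, for Ensembl transcript probes 55.2% to 59.7%, and for RefSeq NR (noncoding) probes 39.5% to 43.0%. Within an array, the interval share differed from that of all other probes by −6.83 ± 0.815 percentage points (SD, n = 5 arrays). It differed from NM probes by −17.3 ± 0.904, from Ensembl transcript probes by −1.79 ± 0.639 and from NR probes by 14.2 ± 0.768. Each of these differences had the same sign on 5 of 5 arrays, with an exact two-sided sign-flip permutation p of 0.0625 (0.0625 after Benjamini-Hochberg adjustment over 4 classes), the smallest that 5 arrays allow. The same probes were read on every array, so a difference between probe sets recurs on each. This p therefore cannot show that interval probes as a class differ.

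**Figure D1:**
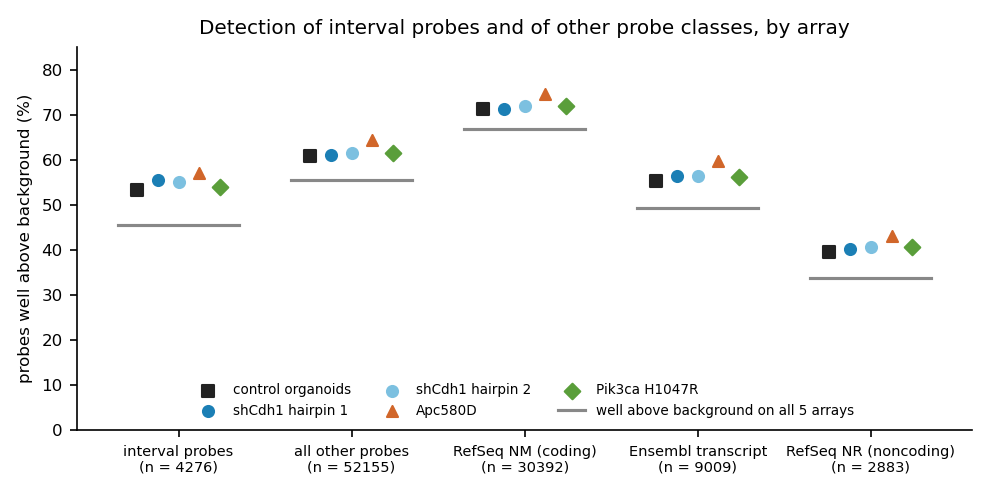
Share of probes flagged well above background (percent, y axis) for interval probes and 4 other probe classes (x axis, number of probes below), with 1 symbol per array and a grey line for the share detected on all 5 arrays. Interval probes sit between coding RefSeq probes above and noncoding RefSeq probes below on every array, with Apc highest in each class.

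Detection differed between arrays for 311 interval probes seen on 1 array (7.27%) and 554 seen on 2 to 4 (13.0%), against 5.0% and 8.66% of probes named in other ways. 76 were detected on all 4 tumour arrays and not in the control (1.78%, background 1.14% over all probes), and 45 in the control alone (1.05%, background 0.869%). Single tumour arrays had 78 probes of their own with hairpin 1 (1.82%, background 0.855%), 62 with hairpin 2 (1.45%, background 0.878%), 85 in Apc (1.99%, background 1.78%) and 41 in Pik3ca (0.959%, background 0.79%). A further 24 were detected with both hairpins alone (0.561%, background 0.221%). None of these shares was tested. These counts rest on a flag, so a probe near its limit can change sides with a small change in signal.

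Short intervals were detected less often. With the probes in 4 equal classes of interval length, 36.2% of the shortest class (62 to 1785 bases) were detected on all 5 arrays, against 46.9%, 50.0% and 49.3% in the longer classes. Chromosomes ranged from 39.4% on chromosome 9 to 56.6% on chromosome 17. Strand made little difference, with 45% of forward and 46.2% of reverse probes detected on all 5 arrays. Among the 812 intervals probed on both strands, 155 were detected on all 5 arrays on the forward strand alone, 171 on the reverse strand alone, 269 on both and 217 on neither. None of these shares was tested.

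Where interval probes were detected their signals were low. A signal depends on the probe as well as on its transcript, so these levels describe probes and do not measure relative abundance. The median level of the 1949 probes detected on all 5 arrays was −3.26 in the control, −3.04 and −3.10 with the hairpins, −3.19 in Apc and −3.15 in Pik3ca, while the other 28970 probes so detected had medians between −0.84 and −0.79. The middle of the interval distribution thus lay below that of other probes by more than 2 log2 units on every array. A small number were bright: 305 had a mean level above the 75th percentile of their arrays.

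Among probes detected on all 5 arrays, interval probes varied less between arrays than other probes. The SD of the log2 difference from the control over the 1949 probes was 0.566 for hairpin 1, 0.591 for hairpin 2, 0.558 for Apc and 0.630 for Pik3ca, against 0.688, 0.759, 0.740 and 0.842 over other probes. Over the 10 pairs of arrays, 2.46% to 9.54% of detected interval probes differed by at least 2-fold, against 4.61% to 14.8% of others, and the interval share was the lower in 10 of 10 pairs. The pairs share arrays, and this difference was not tested. By this share the closest pair was hairpin 1 with Pik3ca (2.46%), and by the SD of the differences it was Apc with Pik3ca (0.431, against 0.452 for hairpin 1 with Pik3ca). The control with Pik3ca was the farthest pair by both (9.54% and 0.630), and the 2 hairpins differed at 3.54%. 5 interval probes were spotted 10 times per array, and their spots had an SD of 0.0175 to 0.140 log2 within an array. These 5 were bright, at levels of 5.97 to 7.59, so their SD does not describe dim probes or the spread between samples.

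In single arrays, 94 detected interval probes were at least 2-fold higher and 65 lower with hairpin 1 (background over all detected probes 5.54% and 5.2%). With hairpin 2 they were 99 and 70 (background 6.2% and 5.61%), in Apc 77 and 55 (5.94% and 4.23%), and in Pik3ca 101 and 85 (7.71% and 6.7%). As shares of 1949 probes these were 4.82% and 3.34%, 5.08% and 3.59%, 3.95% and 2.82%, and 5.18% and 4.36%, each below its background. Over all 4276 members, undetected ones included, the shares higher were 14%, 12.7%, 9.96% and 11.7% in the order hairpin 1, hairpin 2, Apc and Pik3ca (background over all probes 11%, 11.2%, 10.4% and 11.4%). The shares lower were 5.87%, 6.29%, 7.46% and 7.27% (background 6.43%, 6.61%, 6.36% and 7.85%). Without the detection filter the interval share was thus above its background in 3 of 4 arrays for higher probes and in Apc for lower ones.

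**Figure D2:**
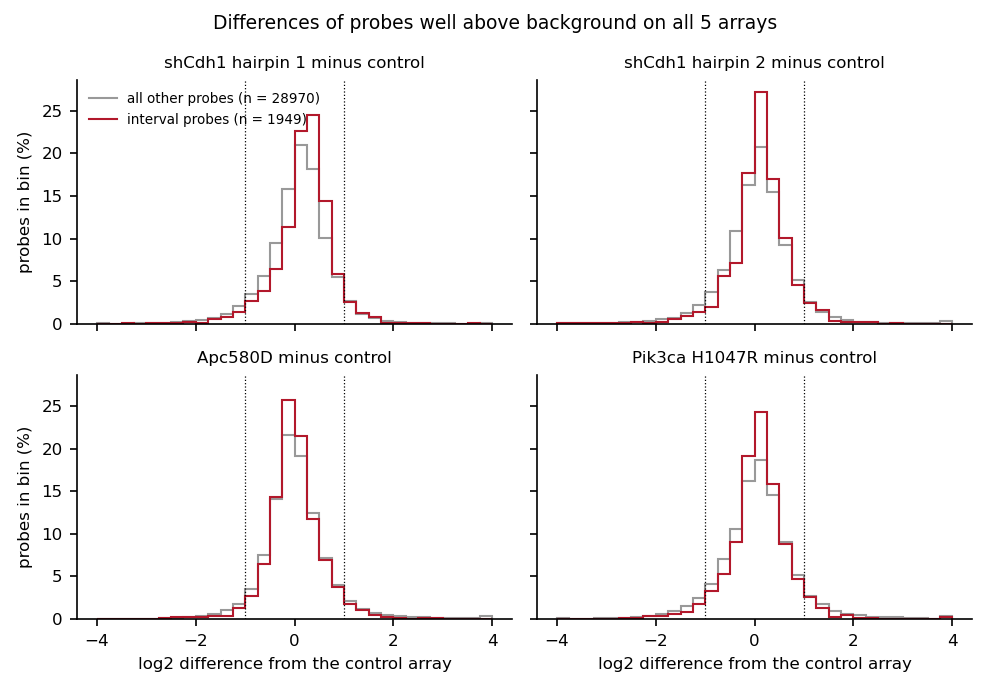
Share of probes (percent, y axis) in bins of 0.25 log2 units of difference from the control array (x axis, values past 4 in the end bins), one panel per tumour array, for interval probes (red) and all other probes (grey) detected on all 5 arrays; dotted lines mark 2-fold. The red curves are narrower in all 4 panels, with SDs of 0.558 to 0.630 against 0.688 to 0.842.

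Among the same probes, detected on all 5 arrays, the spread was also the narrower in each of 4 bins of mean level. In these bins over all 5 arrays, the SD of the mean tumour difference for interval against other probes was 0.526 against 0.626 below −4, 0.517 against 0.789 from −4 to −2, 0.531 against 0.769 from −2 to 0, and 0.455 against 0.556 above 0. The share at least 2-fold from the control on all 4 tumour arrays was lower for interval probes in the lower 3 bins (1.69% against 2.88%, 1.35% against 5.62% and 3.68% against 4.30%). In the brightest bin it was 2.62%, 8 of 305 probes, against 2.11%. These shares were not tested.

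Across all 4 tumour arrays together, 115 interval probes lay at least 2-fold above the control and 61 at least 2-fold below it, 2.69% and 1.43% of 4276, beside a background of 2.53% and 1.87% over all probes. Many of these were too dim for the difference to be measured. Requiring a signal well above background on every array of the brighter side left 46 higher (1.08%, background 1.5%) and 43 lower (1.01%, background 1.52%). Of the 46, 27 were not detected in the control and 19 were detected on all 5 arrays. Of the 43, 14 were detected on no tumour array, 8 on some and 21 on all 5. Among the probes detected on all 5 arrays the counts of 19 and 21 were 0.975% and 1.08%, with a background of 1.74% and 1.65%. None of these shares exceeded its background other than the unfiltered share higher.

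The direction of the balance depended on scaling. Centring each array on its median in place of its 75th percentile gave 81 higher and 90 lower (31 and 62 with the brighter side detected), and quantile normalization 74 and 114 (30 and 63). The normexp background correction, which pulls dim probes together, left 5 and 15. The median difference of all 38998 probes tested moved from 0.10 to −0.05 with median centring, and that of interval probes from 0.13 to −0.02. Without Pik3ca the detected counts were 59 and 50, without hairpin 1 71 and 58, without hairpin 2 62 and 57, and without Apc 65 and 64. Within slide 1, where only the hairpins face the control, they were 104 and 79. With arrays left out fewer had to pass the limit, so these counts could only stay or rise.

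The 46 higher probes lay in 46 intervals on 18 chromosomes, 23 on each strand, and the 43 lower ones in 43 intervals on 15 chromosomes. The smallest of the 4 differences had a median size of 1.3 among the higher and 1.42 among the lower. By these differences 8 were 4-fold or more higher on all 4 arrays and 14 were 4-fold or more lower. The differences include signals not well above background on the dimmer side. The bounds given below, which leave such signals out, were smaller for some of these probes, such as 1.58-fold for A_30_P01029403. No share over all probes at 4-fold is given here, so these counts describe the list only.

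A test of the 4 tumour arrays against the control (limma, Benjamini-Hochberg adjusted p under 0.05 over 38998 probes detected on at least 1 array) called 49 probes, a background of 0.126% (0.0205% higher and 0.105% lower). Of 2814 interval probes tested, 0 were called higher and 3 lower, and 382 (13.6%) had an unadjusted p under 0.05 beside a background of 13.8%. With a single control array the spread comes from the tumour arrays alone, which differ in genotype. Each call was lost when any 1 of hairpin 1, hairpin 2, Apc or Pik3ca was left out, and with slide as a block.

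The 3 called probes were detected in the control and on no tumour array. A_30_P01025520, on chr18:84303291-84303890 F, read −3.99 in the control and −7.99, −8.10, −7.80 and −8.03 with hairpin 1, hairpin 2, Apc and Pik3ca. The tumour values lay within 0.30 of each other at the floor of the measurement, on average at least 4.0-fold below the control. Its fitted difference was −3.99 ± 0.234 (SE, limma adjusted p = 0.0181). Over 12 alternatives, 5 of which called it, the limma adjusted p ran from 0.0142 to 0.13 and the difference from −4.19 to −0.94. Throughout, an "at least" value with decimals for a single probe is a mean over the 4 tumour arrays and may not hold on each of them. It sets the brighter side against the lowest signal flagged well above background on the arrays of the dimmer side. Where the probe's own signal there was higher, that signal was used. Such a bound makes no use of signals lost in background. Fitted differences, their p-values and the 2-fold and 4-fold limits do use such signals. The bounds are those of the main setting and need not hold in the alternatives, some of which gave much smaller differences.

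A_30_P01031936, on chr1:63319842-63349796 F, read −4.57 in the control and −7.94, −7.96, −8.36 and −8.01 on the tumour arrays in the same order, at least 2.67-fold lower. Its fitted difference was −3.50 ± 0.266 (limma adjusted p = 0.0399). Over 12 alternatives, 4 of which called it, the limma adjusted p ran from 0.0153 to 0.227 and the difference from −3.65 to −0.64. A_30_P01021428, which probes an overlapping interval of that strand (chr1:63264155-63345773), was detected on all 5 arrays and lay on both sides of the control, with differences of −0.24, 0.17, −0.34 and −0.17.

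A_30_P01029403, on chr12:111829967-111830904 F, read −5.33 in the control and −7.88, −7.87, −7.94 and −8.03 on the tumour arrays, at least 1.58-fold lower. Its fitted difference was −2.60 ± 0.216 (limma adjusted p = 0.0475). Over 12 alternatives, 4 of which called it, the limma adjusted p ran from 0.0276 to 0.468 and the difference from −2.84 to −0.32. A second probe of exactly this interval and strand, A_30_P01028975, was detected on all 5 arrays with differences of −1.05, −1.13, −0.79 and −0.85. A_30_P01026228, on the wider chr12:111824094-111838478 F, differed by 0.27, −0.03, 0.01 and −0.13. The probes inside the short interval were thus lower on all 4 tumour arrays and the one named for the wider interval was not.

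Among lower probes still detected on the tumour arrays, A_30_P01027703 (chr18:36072785-36076426 F) had the tightest values. It read 0.37 in the control and −1.87, −2.01, −2.06 and −1.96 on the tumour arrays, a difference of −2.34 ± 0.218 (limma adjusted p = 0.0641). All 4 tumour values lay within 0.19 of each other and more than 2 log2 units under the control. A_30_P01027140 (chr17:13806767-13824342 R) read −0.996 in the control and −3.46, −4.26, −4.06 and −3.84 on the tumour arrays, a difference of −2.91 ± 0.357 (limma adjusted p = 0.109). Neither passed the adjusted threshold.

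A_30_P01020960, on chr17:29183003-29217681 R, read −1.93 in the control and −5.90, −5.20, −6.43 and −5.82 on the tumour arrays, of which hairpin 2 alone was well above background. The fitted difference was −3.90 ± 0.475 (limma adjusted p = 0.106). A_30_P01021480, which probes chr17:29192453-29216073 on the same strand, was detected on all 5 arrays and was also lower on all 4, by smaller amounts (−0.38, −0.73, −1.20 and −0.88). For reference, Cdkn1a, the p53 target gene that encodes the cell-cycle inhibitor p21 and that the RefSeq table also places on chromosome 17, read 4.03 in the control and 2.08, 1.82, 1.31 and 2.65 on the tumour arrays; it was chosen after its values were seen. No probe was matched to Trp53cor1, the gene of lincRNA-p21, and the distance between the interval and Cdkn1a was not computed because the builds differ.

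The brightest lower probes were a pair on chromosome 9. A_30_P01020518 (chr9:78104935-78116974 F) read 7.36 in the control and 5.25, 3.75, 4.64 and 5.06 on the tumour arrays. A_30_P01018914, on the overlapping chr9:78107225-78118850 F, stood at 7.58 and then at 5.95, 4.45, 5.05 and 5.50. Both probes put the control highest and hairpin 2 lowest, with differences of −2.69 ± 0.603 and −2.35 ± 0.582 (limma adjusted p = 0.210 and 0.232). Another probe there, A_30_P01027697, shares the interval of the second but was dim, detected on 3 arrays, with differences of −0.56, −1.20, −0.35 and −0.51.

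On chromosome 14, 4 probes of overlapping forward intervals were lower on all 4 tumour arrays. A_30_P01031848 (chr14:21437920-21464655) read −0.49 in the control and −1.92, −1.89, −1.57 and −2.19 on the tumour arrays. A_30_P01027077, inside it at chr14:21460230-21461364, stood at −0.30 and then at −1.70, −2.05, −1.45 and −2.03. A_30_P01031134 (chr14:21461716-21462270) differed from the control by −1.29, −1.09, −0.68 and −1.49, and A_30_P01024363 (chr14:21462770-21463270), detected on 2 arrays, by −1.01, −2.44, −0.36 and −2.56. Apc had the smallest difference in each of the 4 probes. For the first 2 the fitted differences were −1.40 ± 0.299 and −1.51 ± 0.320 (limma adjusted p = 0.198 for each).

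On chromosome 10, A_30_P01022813 (chr10:39666719-39679959 R) read −2.22 in the control and −4.91, −4.60, −4.95 and −6.03 on the tumour arrays, with Pik3ca not well above background. A_30_P01022479, on the overlapping chr10:39659425-39674200 R, stood at −3.68 and then at −5.02, −5.14, −5.80 and −5.16. Both were lower on every tumour array, but the lowest array was Pik3ca for the first and Apc for the second.

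On chromosome 15, A_30_P01031088 (chr15:61870759-61938796 F) and A_30_P01029551 (chr15:61984389-62102500 F) were both at least 2-fold lower on all 4 arrays. The second read −3.72 in the control and −5.67, −6.27, −4.76 and −6.45 on the tumour arrays. 3 more probes overlap the second interval on its strand and were lower on all 4 arrays too, 2 of them, detected on all 5 arrays, by 0.46 to 0.80 log2 units in size (A_30_P01025687 and A_30_P01031174). The 1 overlapping probe of the first interval, A_30_P01027639, went the other way, with 2.15, 1.45, 1.11 and 1.52, but was detected on a single array. Pvt1, a noncoding gene that the RefSeq table places on chromosome 15, was at 0.68 in the control and between −0.25 and −0.10 on the tumour arrays (−0.85 ± 0.214, limma adjusted p = 0.234), and its position relative to these intervals was not computed.

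Other leading lower probes were seen in the control alone and had only a bound. A_30_P01027118 (chr7:69075022-69127242 R) stood at −4.51 in the control and was at least 2.78-fold lower. A_30_P01032270 (chr2:94008913-94019798 R) stood at −4.36 and was at least 3.08-fold lower. A_30_P01021542 (chr5:108544188-108545013 F) stood at −4.33 and was at least 3.16-fold lower. Inside the first of these, A_30_P01017899 (chr7:69088784-69089906 R) was just short of the 2-fold limit, with −0.98, −1.34, −1.55 and −2.15, but it was well above background in the control alone, so these differences rest on signals not measured on the tumour arrays.

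Not every such interval held up across its probes. A_30_P01032574 (chr10:62347876-62374346 R) read −4.25 in the control and −7.56, −6.66, −8.47 and −8.19 on the tumour arrays, none well above background, at least 3.33-fold lower. Of the 3 other probes of that interval and strand, A_30_P01021109 and A_30_P01032988 were detected on all 5 arrays and lay above the control on all 4 tumour arrays, by 0.07 to 0.76 and by 0.38 to 1.24. A_30_P01021813 (chr4:116790373-116797823 R) read −3.23 in the control and −5.55, −7.91, −6.01 and −6.09, with hairpin 2 and Pik3ca not well above background. A_30_P01025368, detected on all 5 arrays on the overlapping chr4:116791819-116798263, differed by 0.13, −1.28, −0.998 and −0.32.

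**Figure D3:**
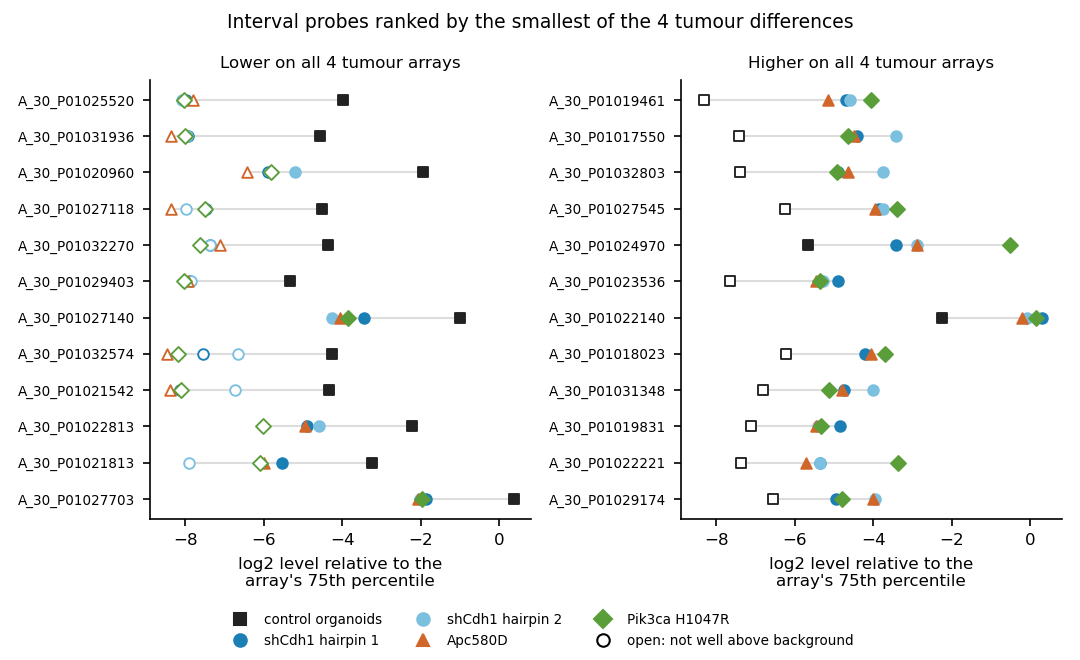
Log2 level relative to the array's 75th percentile (x axis) of the 12 lower and 12 higher interval probes (y axis, by probe) with the largest values of the smallest of their 4 differences; 1 symbol per array, open where not well above background, and symbols that coincide overlap. In each row the control square lies outside the range of the 4 tumour symbols, as the choice of these probes requires. The control square is open for 10 of the 12 higher probes.

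Most leading higher probes were not detected in the control and stood at low levels on the tumour arrays. A_30_P01019461 (chr1:186560855-186563399 F) read −8.33 in the control and −4.70, −4.59, −5.15 and −4.05 on the tumour arrays, at least 2.72-fold higher. Its fitted difference was 3.71 ± 0.436 (limma adjusted p = 0.0970), and with normexp it was 0.61. A_30_P01027545 (chr3:40439525-40509975 R) read −6.25 in the control and −3.85, −3.75, −3.96 and −3.39, at least 5.02-fold higher. A_30_P01017550 (chr2:36112819-36114110 F) stood at −7.42 and then at −4.43, −3.41, −4.50 and −4.65, at least 3.53-fold higher. The control was not well above background for any of the 3, and the probes were chosen for their distance from it.

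A_30_P01022140 (chr2:75481116-75481679 R) was the brightest of the 12 in the control. It stood at −2.24 in the control, where it was detected, and at 0.30, −0.09, −0.22 and 0.14 on the tumour arrays. The difference was 2.27 ± 0.284 (limma adjusted p = 0.111), and the 4 tumour values lay within 0.52 of each other. A_30_P01031281, on the wider chr2:75444518-75497268 that contains this interval, was detected on 4 arrays and differed by 0.21, −0.76, −0.10 and 0.06. The probe of the wider interval thus showed no such difference.

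Of the 12 higher probes, A_30_P01024970 (chr10:83181374-83249774 F) had the widest spread among tumours. It read −5.66 in the control and −3.41, −2.90, −2.88 and −0.52 on the tumour arrays, Pik3ca being the highest. The difference of 3.24 ± 1.12 (limma adjusted p = 0.320) carries that spread. A_30_P01032460, on the overlapping chr10:83185606-83225506, had the same order of the 5 arrays, with differences of 0.69, 2.09, 2.26 and 4.23, and A_30_P01025402 (chr10:83181374-83249918), detected on 3 arrays, had 0.22, 1.00, 1.20 and 0.70.

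On chromosome 17, 3 forward probes lay above the control on all 4 tumour arrays. A_30_P01018023 (chr17:95150800-95180650) stood at −6.22 in the control, undetected, and at −4.22, −3.70, −4.07 and −3.70 on the tumour arrays, at least 4.43-fold higher. A_30_P01028127, inside it at chr17:95158347-95160942, stood at −5.08 and then at −4.04, −4.03, −4.02 and −4.10, and missed the 2-fold limit by its Pik3ca value alone (0.99). A_30_P01019123, named for the same interval as the first, was brighter and differed by 0.28, 1.00, 0.59 and 0.93.

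On another stretch of chromosome 17 overlapping intervals of opposite strands were both higher. A_30_P01026762 (chr17:32213027-32228368 R) read −0.37 in the control and 0.99, 1.03, 0.79 and 1.13 on the tumour arrays. A_30_P01023739 (chr17:32213375-32238425 F) stood at −5.05 and then at −3.62, −3.86, −3.71 and −4.03. On chromosome 1, by contrast, A_30_P01029178 (chr1:36086491-36087863 R) was lower, with −1.21, −1.98, −1.73 and −1.48, and A_30_P01031346 (chr1:36094831-36095159 R), under 100 kb away on the same strand, was higher, with 1.52, 1.34, 1.30 and 1.52.

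The remaining leading higher probes were all undetected in the control: A_30_P01032803 (chr3:131128972-131163308 R, at least 2.84-fold), A_30_P01029174 (chr13:28700385-28760363 R, at least 3.11-fold), A_30_P01031348 (chr3:51804655-51805883 R, at least 2.63-fold), A_30_P01022221 (chr7:6296401-6311486 F, at least 2.16-fold), A_30_P01023536 (chr1:85300475-85331475 F, at least 1.77-fold) and A_30_P01019831 (chr18:38302523-38302756 R, at least 1.74-fold). For the last 2 the bound is under 2-fold because the tumour levels, −5.46 to −4.86, were themselves close to the limit of detection. Overlapping probes did not all follow. A_30_P01031195, which overlaps A_30_P01023536, was detected on all 5 arrays and differed by 0.16, −0.003, −0.18 and 0.11. Of those overlapping A_30_P01029174, A_30_P01027179, detected on all 5 arrays, differed by −0.24, −0.17, −0.28 and 0.05. A_30_P01018833, detected on 3, differed by 0.78, 3.20, 3.38 and 1.49.

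Near the 2-fold limit, the higher probes just inside included A_30_P01019507 (chr11:97457180-97487074 R), at −2.95 in the control and −1.29, −1.92, −1.35 and −0.99 on the tumour arrays. Just outside lay A_30_P01026232 (chr2:132079092-132087069 F), at −2.47 and then −1.34, −1.38, −1.19 and −1.49. Among lower probes, A_30_P01018844 (chr14:78214602-78225827 R), at −4.90 and then −6.28, −5.92, −6.23 and −6.25, was just inside, and A_30_P01031187 (chr2:165802256-165805186 R), at −4.17 and then −5.15, −5.26, −5.24 and −5.44, just outside. A_30_P01018844 was well above background in the control alone, so its place inside the limit rests on signals not measured on the tumour arrays. The probes on either side of the limit had similar values.

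For single genotypes against the control the spread comes from the pair of hairpins alone. At an adjusted p under 0.05 limma called 0 of 38998 probes (0.0%) for shCdh1, Apc or Pik3ca, and so 0 interval probes. With normexp it called 20, 69 and 51 probes, again 0 of them interval probes. At an unadjusted p under 0.05 there were 321 interval probes (11.4%, background 10.4%) for shCdh1, 241 (8.56%, background 9.06%) for Apc and 291 (10.3%, background 11.6%) for Pik3ca. The comparisons share the control array.

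On chromosome 12, a pair of overlapping probes was among those lowest in Apc relative to the other tumours. A_30_P01018470 (chr12:77550684-77551505 F) stood at −4.75 in the control, −2.25 and −1.54 with the hairpins, −6.11 in Apc and −1.95 in Pik3ca. A_30_P01025685, whose interval contains it (chr12:77544397-77564122 F), stood at −7.20, −4.82, −4.28, −8.45 and −4.49 in that order. Both were well above background with the hairpins and in Pik3ca and in neither case in Apc. The control was well above background for the first and not for the second, so for the second the order of Apc and the control was not measured. A_30_P01022466, a second probe of the wider interval, was detected on all 5 arrays at −2.76, −2.65, −2.27, −3.48 and −2.67. There too Apc was lowest, but hairpins and Pik3ca were near the control. The difference between genotypes was not tested.

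**Figure D4:**
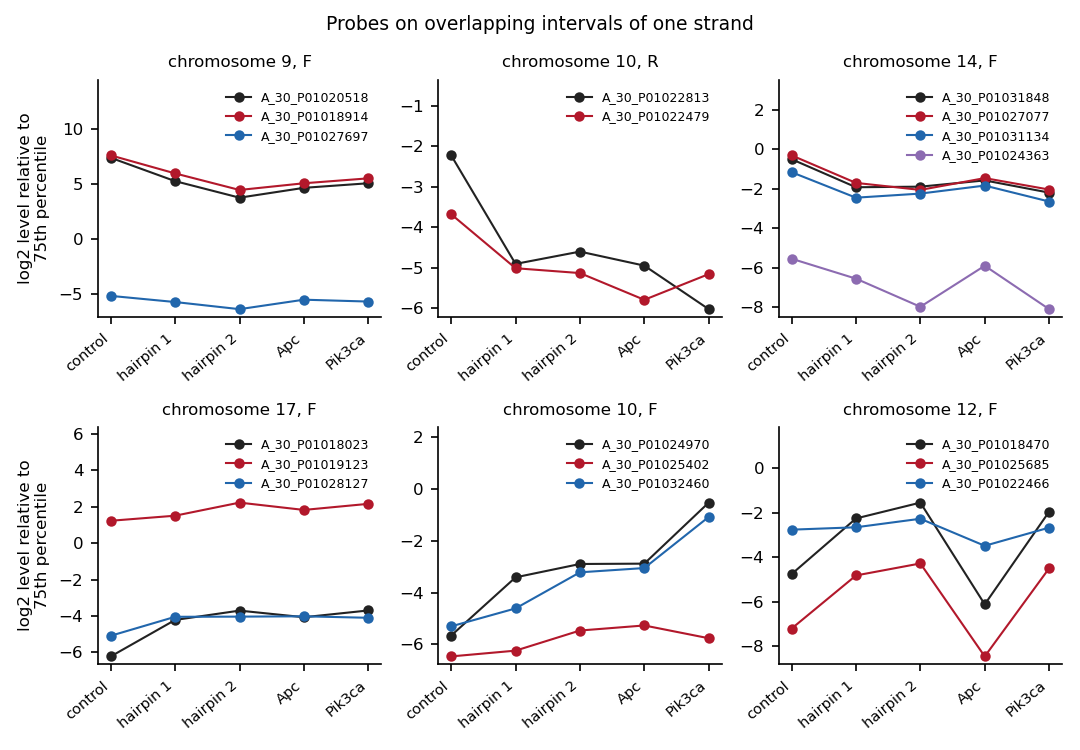
Log2 level relative to the array's 75th percentile (y axis, scale differs by panel) on the 5 arrays (x axis) for probes of overlapping intervals on one strand, with 1 line per probe; the 6 sets were chosen after their values were seen. Lines join categories for legibility. The sets on chromosomes 9, 10 (reverse) and 14 are lower on the tumour arrays, those on chromosomes 17 and 10 (forward) higher, and on chromosome 12 the lowest point of each of the 3 lines is Apc, well above background for A_30_P01022466 alone.

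Other Apc leaders were A_30_P01019388 (chr16:25517037-25531362 F), at −3.75 in Apc and between −8.20 and −7.16 elsewhere, A_30_P01018286 (chr3:37606942-37610130 F), at −5.01 in Apc and between −8.32 and −8.03 elsewhere, and A_30_P01027352 (chr18:6144775-6202232 F), at −5.21 in Apc and between −3.33 and −3.07 elsewhere. A_30_P01021098, on the overlapping chr18:6144775-6202105, was detected on all 5 arrays and was not lower in Apc. It differed from the control by 0.34 and 0.33 with the hairpins, 0.21 in Apc and 0.47 in Pik3ca. Apc was also the array with the most fibroblast markers detected, 5 of 8. The log2 of their summed level was −3.58, −3.27, −2.87, −1.90 and −2.96 in the control, hairpin 1, hairpin 2, Apc and Pik3ca, and Col3a1, Pdgfrb and Lum were well above background on no array. The part of those markers in the Apc values was not tested.

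In Pik3ca, A_30_P01026930 (chr14:105988692-105994145 F) stood at −4.06 and between −8.49 and −8.13 elsewhere, and A_30_P01027901 (chr12:50490638-50508093 F) at −4.15 and between −8.46 and −7.99 elsewhere. A_30_P01024849 (chr2:168136389-168136560 R) was detected on all 5 arrays, at −5.40 in the control, −4.46, −4.34 and −4.29 in the other tumours and −1.21 in Pik3ca. The lowest relative to the others was A_30_P01017440 (chr14:8576576-8624104 R), at −7.98 in Pik3ca and between −5.88 and −4.73 elsewhere. As the Pik3ca array also carried Y-linked signal, the part of a different animal or sex in these values was not tested.

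For the hairpins together, A_30_P01019953 (chr17:46058814-46059304 F) stood at −4.03 and −4.28 with hairpins 1 and 2 and between −6.98 and −6.16 on the other 3 arrays. A_30_P01029577 (chr1:88187397-88187862 R) stood at −7.45 and −8.22 with the hairpins and between −5.93 and −4.70 elsewhere. The first was well above background with the hairpins alone, and the second on the 3 arrays other than the hairpins. The hairpins shared the control's slide. The control lay nearer Apc and Pik3ca than the hairpins for these and for A_30_P01032328. It lay nearer the hairpins for A_30_P01031915, and for A_30_P01030979, where neither it nor the hairpins were well above background. For A_30_P01021876 hairpin 2 was the nearest to the control (0.48), followed by Pik3ca (−0.79) and hairpin 1 (0.99). A_30_P01031915 (chr5:115806200-115834425 F), for example, stood at −5.45 in the control, −4.81 and −4.73 with the hairpins, −7.09 in Apc and −6.38 in Pik3ca. A_30_P01030382, another probe of that interval, was detected on 3 arrays. It differed from the control by −0.51 and 0.21 with hairpins 1 and 2, 0.002 in Apc and −0.83 in Pik3ca. The part of the slide in these values was not tested.

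Overlapping interval probes of the same strand shared a direction more often than those of opposite strands. Among probes detected on all 5 arrays, the mean tumour difference had the same sign in 103 of 132 pairs of the same interval and strand (78.0%), with a median gap of 0.272 log2 units between the probes. In overlapping but different intervals of the same strand it was 225 of 329 pairs (68.4%). For opposite strands it was 170 of 319 pairs (53.3%) in the same interval and 142 of 266 (53.4%) in overlapping ones. Beyond overlap, within 100 kb, it was 55.6% of 360 pairs on the same strand and 54.5% of 308 on opposite strands. These shares are a description, not a test: pairs share arrays and often a probe. Of the 1949 single probes, 64.0% had a mean tumour difference above 0. With median centring, an alternative added after the data were seen, the same-strand shares were 72.0% and 64.7% and the opposite-strand shares 45.8% and 52.6%, and the order of the strands held.

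**Figure D5:**
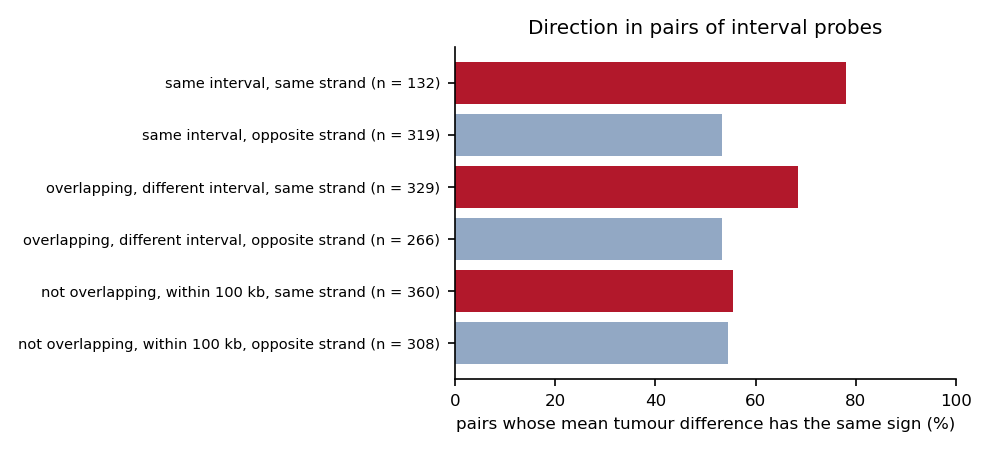
Share of pairs of interval probes, both detected on all 5 arrays, whose mean difference of the tumour arrays from the control had the same sign (x axis, percent), by how the pair lies (y axis, number of pairs in brackets). Same-strand pairs of one interval (78.0%) and of overlapping intervals (68.4%) stand above the other 4 kinds (53.3% to 55.6%).

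Of the 89 probes at least 2-fold from the control with the brighter side detected, 48 had at least 1 other interval probe overlapping on the same strand. Those made 72 pairs of a probe with a partner, in 36 of which the partner shared the probe's direction on all 4 tumour arrays and was detected on at least 1 array. In 56 pairs, these included, the partner was detected on at least 1 array. The pairs on chromosomes 9, 10 and 14 above are those in which both members passed. Each of them was counted from both of its members, so the 72 are not all distinct, and both members had been chosen by their differences. No share over other pairs of interval probes is given here, so the 36 describe this list only.

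Some bright intervals hardly moved. Among the 100 interval probes with the highest mean level, A_30_P01018807 (chr6:67155508-67216941 R) had the narrowest range, at 2.61, 2.76, 2.73, 2.56 and 2.71 in the control, hairpin 1, hairpin 2, Apc and Pik3ca. A_30_P01030669 (chr7:108209996-108216032 R), among the brightest, stood at 7.48, 7.58, 7.61, 7.32 and 7.40. Their ranges of 0.201 and 0.294 log2 units are the widest gaps between any 2 of the 5 arrays.

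A list of 28 named noncoding RNA genes gave 24 with a probe, of which 20 were detected on all 5 arrays. 0 of the 24 were at least 2-fold from the control on all 4 tumour arrays, beside 2.53% higher and 1.87% lower over all probes. The limma test called 0, beside a background of 0.126%, and did not include the 2 genes detected on no array. With 24 genes, counts of 0 lie near these shares and say nothing about the list. The median difference was 0.07, beside 0.10 over all probes tested. Gas5, a snoRNA host gene, was at 6.55 in the control and 6.34 to 6.68 on the tumour arrays. H19, an imprinted noncoding RNA, was at −1.69 in the control and at −4.20, −1.98, 0.15 and −0.24, on both sides of the control. Neat1, the scaffold RNA of paraspeckles, was lower on 4 of 4 tumour arrays, at 1.41 in the control and 0.23 to 0.96 on them (−0.90 ± 0.337, limma adjusted p = 0.346).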

How the data were processed

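Per the labels' protocols, RNA was column-purified, amplified with a low-input kit and labelled with Cy3. Agilent Feature Extraction 11.0.1.1 is named in the submitters' processing notes. Per the file headers, the deposited processed signal of each spot is an intensity that the software had background-subtracted, with median spot and local background intensities and flags beside it. The value table deposited by the authors holds log2 values; its differences between arrays matched the scanner values over 53335 probes (slope 1), and the baseline per probe is unknown. Its column medians were −0.0572, 0.0733, 0.0310, −0.0788 and 0.0225 for control, hairpin 1, hairpin 2, Apc and Pik3ca.

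From the scanner files, the 75th percentile of log2 processed signal over 59305 non-control spots was subtracted per array, outlier spots (78 to 114 an array; 0 saturated) were left out and spots of a probe averaged. 32 of 56605 probes lacked a value on some array, none of them an interval probe. Members and lists were chosen with earlier results of these data known. limma 3.58.1 in R 4.3.3 (lmFit, eBayes, two-sided, Benjamini-Hochberg over all 38998 probes well above background on at least 1 array) compared the 4 tumour arrays with the control (3 residual degrees of freedom) and each genotype with it (1 degree, from the hairpins, taken as 2 replicates of 1 group). The lone arrays are assumed to vary like the replicated ones. Nothing says whether the hairpins came from separate cultures, so p-values measure only the spread between these samples, which may be technical. The fit was checked on simulated data with known changes. Gene symbols came from RefSeq accessions of assembly GRCm38.p6 (34566 probes matched), for names and chromosomes only. Some named genes, among them Neat1, Gas5, Pvt1 and Cdkn1a, had more than 1 probe. Values given for such a gene are those of 1 probe, and its other probes are not reported here.

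Named probes are the 12 highest and 12 lowest by the smallest of the 4 tumour differences with the brighter side detected, those called by limma, the 4 nearest the 2-fold limit on each side and direction, 3 leaders per genotype and direction, and the 5 of the 100 brightest with the narrowest range; some of these were left out of the text, and overlapping probes were added after their values were seen. Alternatives were other background corrections, scalings, filters, thresholds, the authors' table, slide as a block and leaving out each tumour array. The number of arrays limits the precision.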

Additional observations from a re-analysis of the deposited data

Results flagged for a closer look

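On chromosome 12, the fitted values of the hairpins and Apc lay on opposite sides of the control for A_30_P01018470. Against the control, Apc differed by −1.3598 and the hairpins by 2.50 and 3.21. Pik3ca differed by 2.806, also opposite to Apc. A_30_P01025685, which probes the overlapping interval, had the same signs, with −1.2509 in Apc, 2.39 and 2.93 with the hairpins and 2.7092 in Pik3ca. These are 1 array per genotype apart from the pair of hairpins, and the difference between genotypes was not tested. Both probes overlap, so they are not independent, and neither was well above background in Apc, where the values give no measured level. The control was not well above background for A_30_P01025685 either, so its Apc sign is not a measured direction. A_30_P01022466 of the same strand differed by −0.72 in Apc, 0.11 and 0.49 with the hairpins and 0.09 in Pik3ca.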

How the results depend on the processing

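Counts of interval probes depended on the processing, and the cause was not tested beyond what each setting does. The count at least 2-fold from the control on all 4 tumour arrays (115 higher, 61 lower; 46 and 43 with the brighter side detected) became 5 and 15 (5 and 15) with normexp, 74 and 114 (30 and 63) with quantile normalization, 30 and 36 (30 and 36) with a floor under dim signals, 19 and 21 (19 and 21) among probes detected on all 5 arrays, 276 and 121 (104 and 79) with slide as a block, 272 and 173 (133 and 118) at 1.5-fold and 14 and 15 (8 and 14) at 4-fold. Leaving out 1 tumour array in turn gave 149 to 167 higher and 76 to 93 lower, and 59 to 71 and 50 to 64 with the brighter side detected. The last 2 ranges were added after the data were seen. Fewer arrays had to pass the limit in these counts, so they could only stay or rise. The same holds for the counts with slide as a block, which set only the hairpins against the control. The limma count of 3 became 1 with no filter, 1 among probes detected on all 5 arrays, 0 with slide as a block and 0 to 0 without each tumour array (fewer samples), and was 3 or 4 under the other scalings, normexp, the floor and the authors' table. A like count did not mean the same probes, as A_30_P01025520, A_30_P01029403 and A_30_P01031936 were called in 5, 4 and 4 of 12 alternatives. None of these was detected on all 5 arrays, so the 1 call under that filter was another probe. Each genotype's count of 0 stayed 0 in every alternative run. The counts detected on all 5 arrays and on at least 1 were 2911 and 4007 by the positive-and-significant flag.

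For 63 named probes in 770 alternatives, the difference kept its direction and side of the threshold in 722, lost the threshold in 23, passed it in 10 and turned in 15. Only the 3 called probes could lose the threshold, and they were called in 5, 4 and 4 of 12 alternatives. For the other probes, a kept direction without a call counted as unchanged, whatever the size of the difference. A_30_P01019461 was so counted at 3.71 in the main setting and 0.61 with normexp. All turns were in probes with main differences near 0 or opposite tumour arrays: A_30_P01031915 (0.0289 with the floor, 0.68 with slide as a block, −0.6404 to 0.15 with 1 tumour array left out), A_30_P01021876 (0.0389 with the floor, 0.73 with the block, −0.5843 to 0.22 with 1 array left out), A_30_P01032328 (0.02 with the floor), A_30_P01029577 (0.0592 with the floor), A_30_P01018807 (−0.0679 with median centring), A_30_P01027470 (−0.0121 with median centring), A_30_P01030669 (0.11 with the block, −0.0516 to 0.0464 with 1 array left out) and A_30_P01022768 (−0.0022 with median centring).

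No paired analysis was possible because the control and the tumour genotypes share fewer than 2 replicate numbers. The genotype fits without a hairpin had no residual degrees of freedom and were not run, nor was the split by lincRNA prefix, which no member carries. Signals over background limit the dim probes: where a side was not detected, the fitted differences include signals not above background, and only the bounds leave them out.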
